A study of Mus musculus with 16 samples.

Results

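The chemokines and their receptors were taken as every gene on the array whose symbol begins with Ccl, Cxcl, Ccr, Cxcr, Cx3c, Xcl or Xcr, without the lymphoid homing genes Ccl19, Cxcl13, Ccr7 and Cxcr5 and without the Ccrl and Ccrn names. The rule gave 52 genes read by 68 probes, and the probe with the highest mean signal stood for each gene. They comprised 19 CC ligands, 14 CXC ligands, 10 CC receptors, 5 CXC receptors, and 1 ligand and 1 receptor each of the CX3C and XC families. The symbol was matched as the array gives it, so Pf4 (Cxcl4 on the array) and Ppbp (Cxcl7 on the array) are among the CXC ligands. Of the 52, 48 passed the signal filter (well above background on 4 or more of 16 arrays) and were tested among 24442 features, the others being Ccl20 and Cxcl3 (3 arrays each) and Ccl22 and Ccr1 (no array). The RNA came from whole ovaries of mice aged 1 year, and the study's stated interest was what estrogen receptors (ER) α and β do when granulosa cells of the old ovary take on another identity. There were 4 groups of 4 arrays: Ex3abERKO, lacking both receptors, Ex3aERKO, lacking ERα, Ex3bERKO, lacking ERβ, and a control that kept a single allele of each receptor and so is not a wild type. Neither the strain nor the cells in which the alleles were removed is given in the sources used here, nor is it said that each sample of a group came from its own animal. The p-values therefore rest on a spread between samples that may be partly technical.

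A level is the log2 of a probe's signal over the 75th percentile of its own array, and replicates 1 to 4 are given in that order. The 75th percentile lay between 1211 and 1806, and 80.4% to 87.6% of the spots were well above background. The weights limma estimates from each array's fit to its group, with low weights for arrays that deviate, were lowest for Ex3abERKO 3, at 0.165, and Ex3aERKO 4, at 0.411, and highest for control 3, at 2.98. Esr1, which encodes ERα, lay between -2.11 and -1.04 in Ex3abERKO, between -3.66 and -1.89 in Ex3aERKO, between -1.06 and 0.34 in Ex3bERKO, and between -0.32 and 0.20 in control. Esr2, which encodes ERβ, lay between -2.54 and -1.61 in Ex3abERKO and between -1.07 and 1.58 in Ex3aERKO, while in Ex3bERKO it lay between -0.58 and 1.00, a range that spans the -0.33 to 0.34 of control. By limma the Esr2 probe differed from control by -1.97 in Ex3abERKO (adjusted p = 0.0132) and by 0.43 in Ex3bERKO (adjusted p = 0.913). The 2 groups labelled as lacking ERβ thus disagree on this probe. Which part of either gene was removed is not given, so the probe does not settle the Ex3bERKO label, and the groups are used as labelled. Among the chemokine genes 2 arrays stood low in their groups: Ex3aERKO 4 had the lowest level of its group for 30 of the 48 tested members and Ex3bERKO 4 for 29 of 48. The summed macrophage markers were also lowest of their groups on these 2 arrays.

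Chemokines are small secreted or membrane-bound proteins that set up gradients along which leukocytes move, and their receptors are coupled to G proteins on the leukocytes themselves. Classes are named for the spacing of the first cysteines, and one receptor commonly binds several ligands. In the ovary chemokines are known for drawing macrophages, neutrophils and other leukocytes to the follicle at ovulation and to the regressing corpus luteum. Because whole ovaries were measured, more cells of a type and more RNA per cell cannot be told apart in any of these values.

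The array reads each gene by a probe of 60 bases, and the first 30 bases of those on which the largest differences and 1 disagreement rest are shown, 5′ to 3′ as printed on the array. Cxcl5, Pf4 and Cxcl1 lie in a cluster of CXC ligands on chromosome 5 (mm7, chr5:90732453-90732512, chr5:90744523-90744582 and chr5:90882059-90882118, all on the plus strand). They are not direct neighbours, as Ppbp, Cxcl3 and Cxcl15 lie between Cxcl5 and Cxcl1. Ccl3 is read at chr11:83717761-83717820 on the minus strand. The 2 Cxcl12 probes, at chr6:117207552-117207611 and chr6:117200799-117200858 on the plus strand, start 6753 bases apart and gave opposite signs against control.
Cxcl5: agacatttgatgtcttcgtagtatggcata
Pf4: ctggagagttaggtatcagctgcctaaatg
Cxcl1: agaagtgcagagagatagagtttagtatta
Ccl3: catgaactgacaaatgtacaatagatgctt
Cxcl12, brighter probe: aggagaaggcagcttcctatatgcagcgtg
Cxcl12, dimmer probe: gaattaatcataaacggaagtttaaatgag

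The 3 CXC ligands below lie in the same cluster and have upstream sequences in RefSeq's table (GRCm38.p6). The last 110 bases before each start site are shown, since Cxcl1 and Cxcl2 were called in the same knockouts. Capitals mark matches, on either strand, to a κB-type motif, the binding sequence of the inflammatory transcription factor NF-κB, spelled here as GGG, any 2 bases and TTTCC, or as GGGAA, any base and TTCC; overlapping matches of both spellings run together. The stretches are chr5:90891135-90891244 for Cxcl1, chr5:90903789-90903898 for Cxcl2 and chr5:90785991-90786100 for Cxcl3, all on the plus strand.
Cxcl1: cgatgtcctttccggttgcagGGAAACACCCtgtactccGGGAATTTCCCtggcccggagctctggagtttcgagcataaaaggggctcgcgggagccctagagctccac
Cxcl2: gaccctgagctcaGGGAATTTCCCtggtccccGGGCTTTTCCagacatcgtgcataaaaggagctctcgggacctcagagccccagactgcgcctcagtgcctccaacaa
Cxcl3: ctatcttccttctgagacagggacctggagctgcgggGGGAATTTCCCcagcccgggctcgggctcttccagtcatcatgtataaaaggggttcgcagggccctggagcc

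Cxcl1 held 2 stretches of such matches, the nearer starting 71 bases before the start site, Cxcl2 held 2, the nearer 78 bases before it, and Cxcl3 held 1, at 73 bases. In the 250 bases upstream of the start, 8 of the 39 members with an entry held the motif (Ccl1, Ccl9, Ccl20, Ccr3, Cxcl1, Cxcl2, Cxcl3 and Cxcl10), or 20.5%, against 1.88% of all 27025 genes in the table. Of the 10 members with an entry that were higher in Ex3abERKO than in control, Cxcl1 and Cxcl2 held it, or 20%. That is about the 20.5% of all members with an entry, so the motif does not set the risen members apart. The palindromic estrogen response element, spelled as GGTCA and TGACC with any 3 bases between them, was in none of the 39 and in 0.0666% of all genes. With so low a share none was to be expected among 39, so its absence says nothing of the members. The interferon-type motif, spelled as GAAA, any 2 bases and GAAA, was in Cxcl10 and Cxcl14, or 5.13% of the 39, against 3.46% of all genes. These are letter matches in short windows and say nothing of binding.

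In ovaries lacking both receptors, 16 members rose and 2 fell against control, with Cxcl5, Ccl3, Pf4 and Cxcl1 showing the 4 largest rises among them and Ccl28 and Cxcl14 the falls. These were calls of limma's test at an adjusted p under 0.05, and the same rule called 22.3% of all features in this comparison, 10.7% upward and 11.7% downward, against 18 of the 48 members. The median difference was 1.04 over the members and -0.11 over all features. Ligands made up 11 of the rises and both falls, out of 32 tested, and receptors made up 5 rises out of 16 tested. In Ex3aERKO 4 members rose and 1 fell (8.02% of all features called, 3.84% upward and 4.19% downward), and in Ex3bERKO no member was called (1.05% of all features called). The Ex3aERKO calls were 10.4% of the tested members, close to the share of all features, so that count is not particular to the members. Of the 48 members, 27 had their highest group mean in Ex3abERKO and 20 their lowest in control. This was not counted over all features, so it cannot be read as particular to the members.

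**Figure D1:**
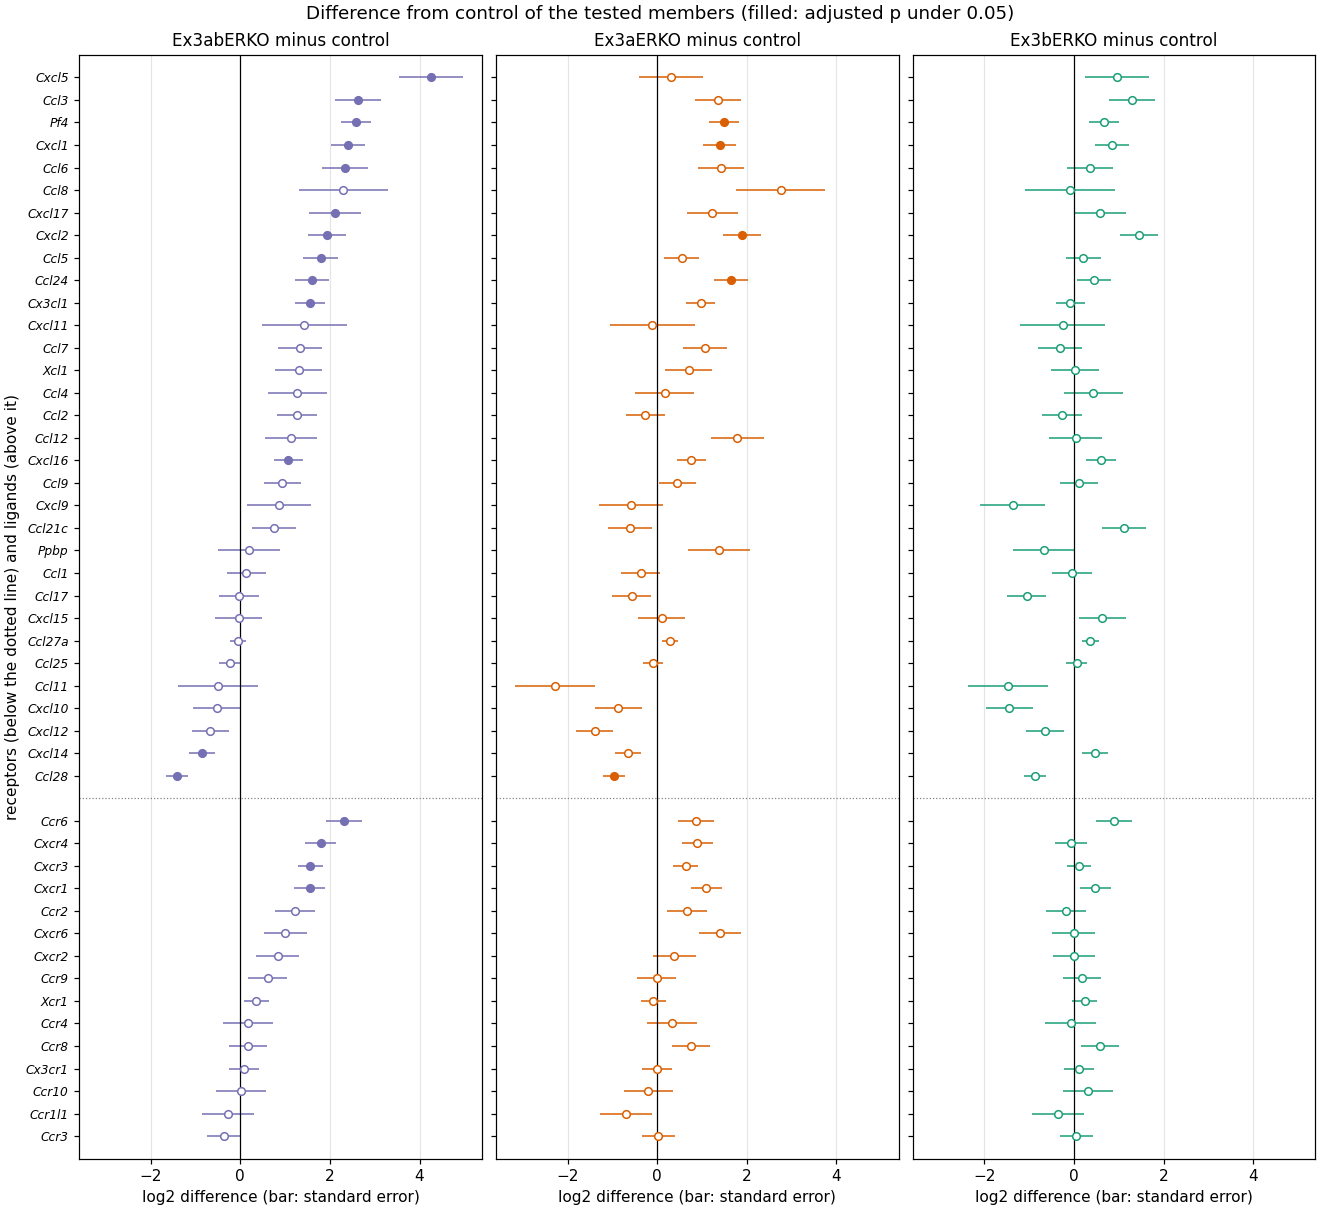
Log2 difference from control of 47 tested members in Ex3abERKO, Ex3aERKO and Ex3bERKO ovaries (x axis), each row a gene, with bars of 1 standard error and filled points for an adjusted p under 0.05. The 17 filled points of Ex3abERKO run from -1.42 for Ccl28 to 4.26 for Cxcl5, Ex3aERKO has 5 and Ex3bERKO none; for Cxcl2 against control the plotted difference is the fitted one, although only a bound holds.

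Among the ligands that draw neutrophils through Cxcr2, Cxcl5 gave the largest difference of any member. Cxcl5, made by epithelial and stromal cells in inflamed tissue, had levels of -0.87, -1.84, -1.92 and -3.38 for Ex3abERKO, -5.86, -5.04, -6.22 and -6.68 for Ex3aERKO, -6.32, -3.01, -5.41 and -6.50 for Ex3bERKO, against -5.44, -6.18, -7.46 and -5.98 for control. All 4 Ex3abERKO arrays stood above all Ex3aERKO and control arrays, and Ex3bERKO 2 alone of the single knockouts, at -3.01, reached above the lowest of them. The difference from control was 4.26 ± 0.72 (adjusted p = 0.000886) on the log2 scale (± standard error throughout), with the probe well above background on 3 of the 4 control arrays. With the normexp background correction it was 1.82, which did not pass (adjusted p = 0.0781).

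Cxcl1, the keratinocyte-derived neutrophil attractant of the mouse, had levels of -0.45, -0.04, -0.17 and -1.21 for Ex3abERKO, -0.48, -1.52, -1.58 and -2.32 for Ex3aERKO, -2.36, -2.12, -1.83 and -1.80 for Ex3bERKO, against -2.40, -2.74, -3.70 and -2.65 for control. No array of the 3 knockout groups fell to the control range. The gene rose in Ex3abERKO by 2.41 ± 0.37 (adjusted p = 0.000521) and in Ex3aERKO by 1.40 ± 0.37 (adjusted p = 0.0325), and differed by 0.84 ± 0.37 (adjusted p = 0.465) in Ex3bERKO, which did not pass.

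Cxcl2, the macrophage-derived ligand of the same receptor, was dim, with -6.13, -6.52, -5.66 and -6.37 for Ex3abERKO, -6.31, -4.95, -6.05 and -7.51 for Ex3aERKO, -6.78, -6.55, -6.33 and -6.93 for Ex3bERKO, against -8.38, -7.40, -8.70 and -7.94 for control. It was well above background on all Ex3abERKO and Ex3bERKO arrays, on 3 Ex3aERKO arrays and on no control array, so only a bound holds: it was at least 1.55-fold higher in Ex3abERKO (adjusted p = 0.00483) and at least 1.51-fold higher in Ex3aERKO (adjusted p = 0.0125) than in control. A bound sets the brighter group's mean against the lowest signal counted as above background on each dim array, or the probe's own signal if higher. The adjusted p beside a bound is limma's for the fitted difference and does not test the bound. With the normexp background correction the sign turned, to -0.41 in Ex3abERKO and -0.54 in Ex3aERKO.

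Their receptor Cxcr2, the main chemokine receptor of neutrophils, had -4.75, -6.51, -4.73 and -5.67 for Ex3abERKO, -5.62, -5.18, -5.43 and -7.25 for Ex3aERKO, -6.44, -6.80, -5.99 and -5.76 for Ex3bERKO, against -6.09, -5.61, -6.70 and -6.61 for control, with overlapping ranges, and differed from control in Ex3abERKO by 0.83 ± 0.47 (adjusted p = 0.238). The related receptor Cxcr1 had -5.80, -6.86, -5.98 and -5.87 for Ex3abERKO, -6.74, -6.09, -6.54 and -6.94 for Ex3aERKO, -7.60, -6.79, -7.44 and -6.95 for Ex3bERKO, against -8.14, -6.64, -7.75 and -8.17 for control, and was well above background on 3 Ex3abERKO, 3 Ex3aERKO, no Ex3bERKO and 1 control arrays. Its difference from control in Ex3abERKO was 1.55 ± 0.34 (adjusted p = 0.00517), but 3 of the 4 control arrays did not measure the probe well above background, and the difference was -0.47 with the normexp correction. Of 11 neutrophil markers, 6 were called higher in Ex3abERKO than in control (10.7% of all features called upward). Their summed signal lay between 4.01 and 25.9 array 75th percentiles in Ex3abERKO and between 1.46 and 11.96 in Ex3aERKO. It lay between 1.24 and 1.64 in Ex3bERKO and between 0.938 and 3.49 in control. Their part in these results was not tested.

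**Figure D2:**
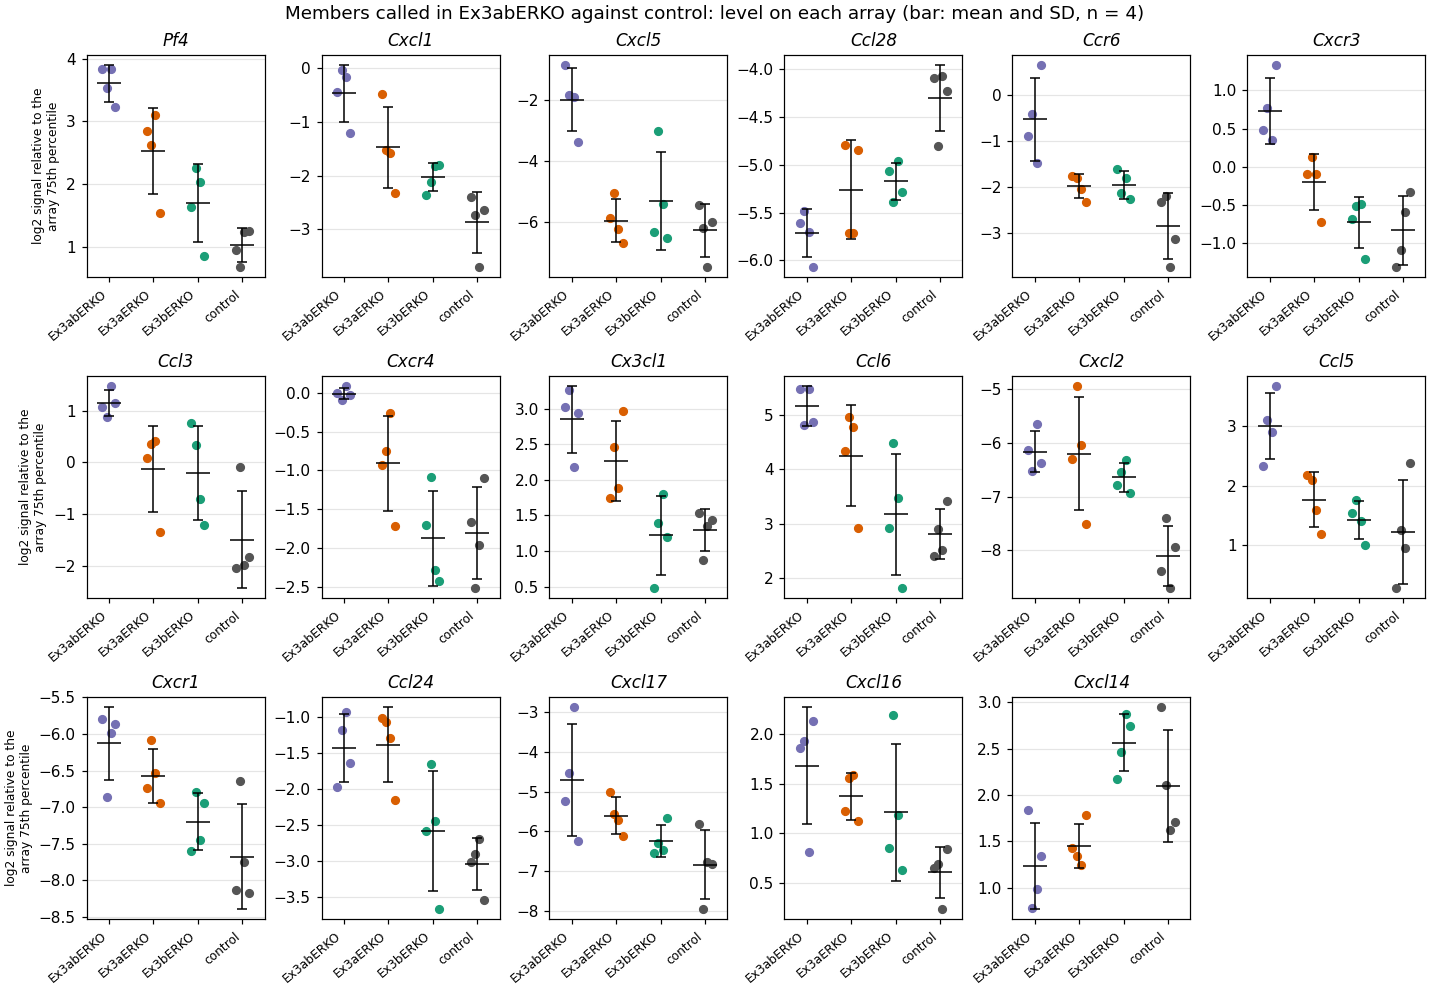
Level on each array (y axis, log2 signal relative to the array's 75th percentile) of 17 members called in Ex3abERKO against control, in order of adjusted p, with 4 points a group and the mean with SD. In the first panel the Ex3abERKO arrays of Pf4 lie between 3.23 and 3.84, above every array of the other 3 groups, and control between 0.68 and 1.26.

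Pf4, a CXC ligand stored in platelet granules and also made by macrophages, had the smallest adjusted p of the members in Ex3abERKO against control. Its levels were 3.84, 3.53, 3.83 and 3.23 for Ex3abERKO, 2.84, 2.62, 3.10 and 1.55 for Ex3aERKO, 1.63, 2.26, 2.04 and 0.85 for Ex3bERKO, against 0.95, 0.68, 1.24 and 1.26 for control, so the Ex3abERKO arrays stood above all others, and the Ex3aERKO arrays above control. It rose by 2.57 ± 0.34 (adjusted p = 0.000189) in Ex3abERKO and by 1.49 ± 0.34 (adjusted p = 0.0135) in Ex3aERKO. In Ex3bERKO the difference was 0.66 ± 0.34 (adjusted p = 0.568). Ppbp, the other platelet chemokine, was called in no comparison and differed from control by 0.20 ± 0.70 in Ex3abERKO.

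Several ligands outside the neutrophil and inflammatory families also changed. Cx3cl1, a membrane-tethered chemokine that also acts as an adhesion molecule, had 3.02, 3.27, 2.18 and 2.95 for Ex3abERKO, 1.75, 2.47, 1.89 and 2.97 for Ex3aERKO, 0.48, 1.40, 1.80 and 1.19 for Ex3bERKO, against 1.54, 0.87, 1.36 and 1.44 for control. The Ex3abERKO arrays stood above all Ex3bERKO and control arrays and overlapped with Ex3aERKO, and the rise over control was 1.56 ± 0.32 (adjusted p = 0.00357). A dimmer second probe, well above background on 8 arrays, gave 0.20 ± 0.58 (adjusted p = 0.864) against control and -0.45 against Ex3bERKO. The only receptor of Cx3cl1, Cx3cr1 of monocytes and resident macrophages, had -2.22, -1.46, -2.83 and -1.55 for Ex3abERKO, -2.18, -1.93, -2.22 and -2.03 for Ex3aERKO, -1.01, -2.36, -2.04 and -2.49 for Ex3bERKO, against -2.56, -1.87, -1.82 and -2.11 for control and differed by 0.07 ± 0.34 (adjusted p = 0.914) in Ex3abERKO.

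Cxcl16, a transmembrane chemokine and scavenger receptor of macrophages, had 1.85, 1.93, 0.81 and 2.13 for Ex3abERKO, 1.23, 1.56, 1.58 and 1.12 for Ex3aERKO, 0.86, 2.19, 1.18 and 0.63 for Ex3bERKO, against 0.65, 0.69, 0.24 and 0.84 for control. Ex3abERKO 3, at 0.81, lay inside the control range and the other Ex3abERKO arrays above it. The difference was 1.07 ± 0.33 (adjusted p = 0.029), and with slide as a block it was 0.92 ± 0.34, which did not pass (adjusted p = 0.0728). A second probe, well above background on all 16 arrays, gave 1.37 ± 0.23 (adjusted p = 0.000885) in Ex3abERKO. It gave 0.80 ± 0.23 (adjusted p = 0.0467) in Ex3aERKO, where the first probe did not pass (adjusted p = 0.19). On the second probe Cxcl16 also passed in Ex3abERKO against Ex3bERKO (0.85 ± 0.23, adjusted p = 0.0221). Its receptor Cxcr6, found on T and NK cells, had 0.40, 0.92, 1.87 and 1.09 for Ex3abERKO, 1.28, 1.93, 1.86 and 0.81 for Ex3aERKO, -0.16, 1.12, 0.26 and -0.97 for Ex3bERKO, against -0.87, -0.05, 0.03 and 1.16 for control, with 1.40 ± 0.48 (adjusted p = 0.0903) in Ex3aERKO and 1.003 ± 0.48 (adjusted p = 0.153) in Ex3abERKO, neither of which passed.

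Cxcl17, a mucosal chemokine listed on the array as BC024561, had -5.23, -4.53, -2.87 and -6.23 for Ex3abERKO, -4.998, -5.57, -5.71 and -6.11 for Ex3aERKO, -6.55, -6.29, -6.47 and -5.66 for Ex3bERKO, against -5.81, -7.94, -6.76 and -6.81 for control, well above background on 1 control array. Ex3abERKO 4 lay among the control arrays and Ex3abERKO 3 far above them. The difference from control was 2.12 ± 0.58 (adjusted p = 0.0167). The call was lost under 4 of 26 alternative settings, among them the normexp correction, with which the difference was 0.10 (adjusted p = 0.912), and leaving out control 2.

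Cxcl14, a chemokine made constitutively by epithelia and stroma, was lower without both receptors. It had 1.84, 0.78, 0.98 and 1.35 for Ex3abERKO, 1.43, 1.34, 1.24 and 1.78 for Ex3aERKO, 2.17, 2.47, 2.88 and 2.74 for Ex3bERKO, against 2.95, 2.10, 1.63 and 1.71 for control. The Ex3abERKO arrays lay below every Ex3bERKO array but overlapped with control, with a difference of -0.86 ± 0.29 (adjusted p = 0.0473) from control. Under 18 of 27 alternative settings that call was lost, with adjusted p up to 0.145, among them slide as a block (-0.84 ± 0.33, adjusted p = 0.0884).

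Cxcl12, the stromal ligand that retains leukocytes and progenitors, could not be given 1 direction. Its brighter probe had 1.15, 1.52, 1.001 and 1.11 for Ex3abERKO, 0.11, 0.86, 1.003 and -0.09 for Ex3aERKO, 1.13, 1.10, 0.79 and 1.87 for Ex3bERKO, against 1.19, 3.36, 1.28 and 1.64 for control and gave -0.67 ± 0.42 (adjusted p = 0.288) in Ex3abERKO and -1.40 ± 0.42 (adjusted p = 0.0544) in Ex3aERKO, where it passed with slide as a block (-1.40 ± 0.38, adjusted p = 0.0407). Its dimmer probe, above background on all 16 arrays like the first, had 0.63, 1.69, 1.39 and 0.89 for Ex3abERKO, 0.51, 0.66, 1.09 and -0.70 for Ex3aERKO, 0.56, 0.97, -0.26 and 0.29 for Ex3bERKO, against -0.73, 0.72, -0.80 and -0.08 for control and gave 1.37 ± 0.42 in Ex3abERKO (adjusted p = 0.0282). Control 2 was the highest control array on both probes. On the brighter one, at 3.36, it stood far above the other control arrays and so weighs on the negative differences there. The receptor Cxcr4, carried by most leukocytes, had -0.01, -0.10, 0.09 and -0.02 for Ex3abERKO, -0.93, -0.75, -0.26 and -1.71 for Ex3aERKO, -1.71, -1.08, -2.28 and -2.43 for Ex3bERKO, against -1.66, -2.51, -1.96 and -1.10 for control. The 4 Ex3abERKO arrays lay close together and above every other array, and the rise over control was 1.80 ± 0.35 (adjusted p = 0.00233).

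**Figure D3:**
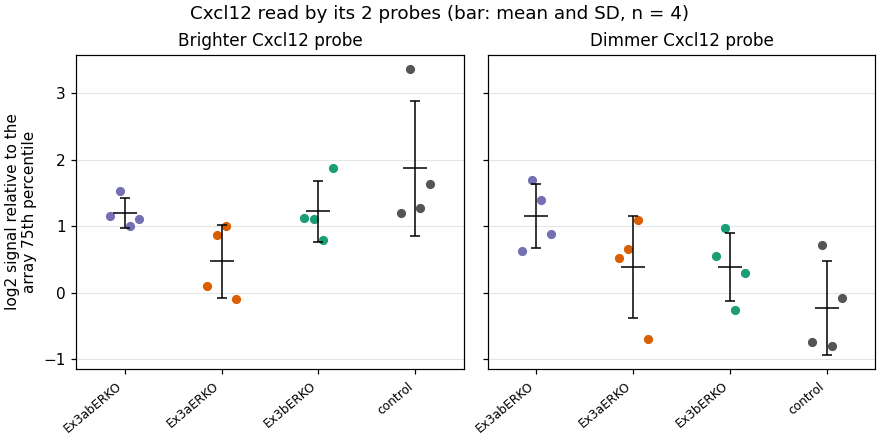
Cxcl12 level on each array by its brighter (left) and dimmer (right) probe, with the mean and SD of each group (y axis, log2 signal relative to the array's 75th percentile). Against control the Ex3abERKO mean is 1.20 against 1.87 on the brighter probe and 1.15 against -0.22 on the dimmer one. Control 2 lies at 3.36 on the brighter probe, apart from the other control arrays.

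Of the CC ligands of macrophages and activated leukocytes, Ccl3, Ccl5 and Ccl6 rose in Ex3abERKO and Ccl4 did not pass. Ccl3, a macrophage inflammatory protein, had 1.08, 0.88, 1.48 and 1.14 for Ex3abERKO, 0.08, 0.36, 0.41 and -1.35 for Ex3aERKO, 0.76, 0.33, -0.70 and -1.21 for Ex3bERKO, against -2.04, -0.10, -1.99 and -1.83 for control. Every Ex3abERKO array stood above every other array, and control 2, at -0.10, stood above the other controls. Ccl3 rose by 2.63 ± 0.51 (adjusted p = 0.00227). Ccl4, its close relative, had 0.66, 0.81, 1.20 and 1.26 for Ex3abERKO, -0.0032, 0.55, 0.26 and -1.29 for Ex3aERKO, 1.99, 0.10, -0.39 and -1.16 for Ex3bERKO, against -1.29, 1.44, -1.17 and -0.14 for control and differed by 1.27 ± 0.66 (adjusted p = 0.194). Both single knockouts and control had wide, overlapping ranges for Ccl4.

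Ccl5, made by T cells and many inflamed tissues, had 2.33, 3.11, 2.90 and 3.68 for Ex3abERKO, 2.18, 2.10, 1.59 and 1.18 for Ex3aERKO, 1.53, 1.76, 1.40 and 0.995 for Ex3bERKO, against 0.27, 1.25, 0.94 and 2.38 for control. The lowest Ex3abERKO array, at 2.33, lay below control 4 and above all other arrays, and the rise over control was 1.79 ± 0.39 (adjusted p = 0.00502). Ccl6, a rodent CC ligand of macrophages, had 5.48, 4.81, 5.47 and 4.86 for Ex3abERKO, 4.33, 4.96, 4.77 and 2.92 for Ex3aERKO, 2.92, 4.48, 3.48 and 1.82 for Ex3bERKO, against 2.41, 2.90, 2.52 and 3.42 for control. Ex3abERKO stood above control without overlap, by 2.34 ± 0.51 (adjusted p = 0.00477).

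Ccr1, a receptor of Ccl3 and Ccl5, was well above background on no array, with levels of -8.53, -8.39, -8.44 and -8.36 for Ex3abERKO, -8.82, -8.88, -8.82 and -8.88 for Ex3aERKO, -8.88, -8.83, -8.88 and -8.88 for Ex3bERKO, against -8.64, -8.88, -8.65 and -8.14 for control.

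The ligands of Ccr2, which calls inflammatory monocytes out of the blood, lay close to the threshold against control in Ex3abERKO for Ccl2 and Ccl7, and passed or not by the setting. Ccl2, the chief of them, had 1.68, 2.05, 1.57 and 1.20 for Ex3abERKO, 0.28, 1.10, 0.24 and -1.23 for Ex3aERKO, 0.38, 0.64, -0.17 and -0.50 for Ex3bERKO, against 1.005, 0.57, -0.60 and 0.46 for control. The Ex3abERKO arrays stood above all others, and the difference from control was 1.27 ± 0.44 (adjusted p = 0.0532). It was 1.21 ± 0.31 with slide as a block, which passed (adjusted p = 0.0174), and the call was gained under 8 alternative settings in all. Ccl7 had -0.53, -1.06, -0.74 and -1.37 for Ex3abERKO, -0.61, -0.57, -0.90 and -2.68 for Ex3aERKO, -1.87, -1.79, -2.78 and -3.77 for Ex3bERKO, against -2.35, -2.19, -2.84 and -1.63 for control and differed by 1.33 ± 0.49 (adjusted p = 0.0678). Its second probe, well above background on all 16 arrays, gave 1.21 ± 0.39 (adjusted p = 0.0398). Ccl12, a mouse relative of Ccl2, had -0.52, -0.33, 0.85 and -0.35 for Ex3abERKO, 1.01, 1.31, 1.14 and -1.15 for Ex3aERKO, -0.77, -0.24, -1.12 and -2.59 for Ex3bERKO, against -2.21, -1.06, -1.03 and -0.56 for control and differed by 1.13 ± 0.59 (adjusted p = 0.194) in Ex3abERKO and 1.79 ± 0.59 (adjusted p = 0.0791) in Ex3aERKO. For Ccl12, Ex3aERKO 4 lay well below the other 3 Ex3aERKO arrays, and without it the Ex3aERKO difference was 2.37 ± 0.51 (adjusted p = 0.0111). Ccr2 itself had -0.52, 0.60, 0.81 and 0.04 for Ex3abERKO, -0.02, -0.17, 0.36 and -1.39 for Ex3aERKO, -0.83, -0.75, -1.003 and -2.08 for Ex3bERKO, against -1.72, -1.29, -0.91 and 0.0011 for control and differed from control in Ex3abERKO by 1.21 ± 0.45 (adjusted p = 0.0669). Its second probe, well above background on 15 arrays, gave 1.93 ± 0.54, which passed (adjusted p = 0.0185).

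Ccl24, the eotaxin that draws eosinophils through Ccr3, had -1.98, -1.18, -0.92 and -1.64 for Ex3abERKO, -1.02, -1.07, -1.30 and -2.15 for Ex3aERKO, -2.58, -1.65, -2.44 and -3.66 for Ex3bERKO, against -3.01, -2.91, -2.69 and -3.54 for control. It was higher in both genotypes lacking ERα, without overlap with control, by 1.61 ± 0.38 (adjusted p = 0.00774) in Ex3abERKO and 1.65 ± 0.38 (adjusted p = 0.0152) in Ex3aERKO. Ccl28, a mucosal ligand of Ccr10 and Ccr3, had -5.61, -5.49, -5.70 and -6.07 for Ex3abERKO, -4.79, -5.71, -5.71 and -4.84 for Ex3aERKO, -5.07, -5.38, -4.96 and -5.28 for Ex3bERKO, against -4.09, -4.80, -4.07 and -4.23 for control. All Ex3abERKO arrays lay below all Ex3bERKO and control arrays, with differences from control of -1.42 ± 0.24 (adjusted p = 0.00104) in Ex3abERKO and -0.96 ± 0.24 (adjusted p = 0.0254) in Ex3aERKO. Ccr3, the receptor of eosinophils, had -3.19, -3.05, -3.62 and -4.40 for Ex3abERKO, -3.19, -3.41, -3.48 and -2.59 for Ex3aERKO, -2.93, -3.60, -3.07 and -2.96 for Ex3bERKO, against -2.65, -2.92, -4.33 and -2.86 for control and Ccr10, a receptor of plasma cells and skin T cells, had -6.16, -6.20, -8.15 and -4.79 for Ex3abERKO, -6.07, -7.40, -6.89 and -5.77 for Ex3aERKO, -6.004, -6.56, -6.01 and -5.55 for Ex3bERKO, against -6.94, -5.87, -6.003 and -6.53 for control. Their differences from control in Ex3abERKO were -0.37 ± 0.37 (adjusted p = 0.537) and 0.01 ± 0.56 (adjusted p = 0.994).

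Ccr6, carried by B cells and a subset of helper T cells, had the largest rise of the receptors. Its levels were -0.89, -0.42, -1.49 and 0.64 for Ex3abERKO, -1.77, -1.81, -2.05 and -2.34 for Ex3aERKO, -1.61, -2.15, -1.81 and -2.26 for Ex3bERKO, against -2.34, -2.19, -3.74 and -3.15 for control. Every Ex3abERKO array stood above every array of the other 3 groups, and the difference from control was 2.32 ± 0.41 (adjusted p = 0.00115). Its ligand Ccl20 was well above background on 1 Ex3abERKO, 2 Ex3aERKO, no Ex3bERKO and no control arrays and was not tested, with levels of -6.92, -6.85, -6.48 and -6.37 for Ex3abERKO, -6.59, -7.29, -5.51 and -6.77 for Ex3aERKO, -7.27, -8.29, -6.97 and -6.91 for Ex3bERKO, against -7.73, -7.41, -6.59 and -7.44 for control.

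The ligands that interferon gamma induces were not called against control, and their receptor was. Cxcl9 had -0.42, -0.36, -0.32 and 0.36 for Ex3abERKO, -1.26, -0.28, -1.65 and -3.37 for Ex3aERKO, -2.23, -2.48, -2.39 and -2.61 for Ex3bERKO, against -2.06, -2.66, -0.80 and 1.32 for control and differed from control in Ex3abERKO by 0.87 ± 0.72 (adjusted p = 0.447). Cxcl10 had -0.34, -0.08, 0.43 and -0.11 for Ex3abERKO, 0.27, 0.92, -0.89 and -1.75 for Ex3aERKO, -0.99, -0.76, -0.94 and -1.06 for Ex3bERKO, against -0.17, 0.13, 0.05 and 1.99 for control and differed by -0.53 ± 0.52 (adjusted p = 0.537). Cxcl11 had -6.02, -4.67, -3.46 and -3.79 for Ex3abERKO, -5.71, -3.75, -7.32 and -7.29 for Ex3aERKO, -5.64, -6.16, -6.29 and -6.55 for Ex3bERKO, against -8.88, -4.23, -5.63 and -4.89 for control and differed by 1.43 ± 0.95 (adjusted p = 0.323). For Cxcl11, control 1 lay at -8.88, the floor set on all values, and was not well above background, nor were Ex3aERKO 3 and 4. The Cxcl11 difference is therefore limited by background. Control 4 was the highest control array for Cxcl9 and Cxcl10. Cxcr3, their shared receptor on effector T and NK cells, had 0.48, 0.77, 0.36 and 1.33 for Ex3abERKO, -0.10, 0.13, -0.09 and -0.73 for Ex3aERKO, -0.69, -0.51, -0.48 and -1.21 for Ex3bERKO, against -1.31, -1.09, -0.59 and -0.33 for control and rose by 1.56 ± 0.28 (adjusted p = 0.00116), with all Ex3abERKO arrays above all others.

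By their barcodes the arrays lay on 4 slides of 4, with control and Ex3aERKO on every slide, Ex3abERKO on 3 and Ex3bERKO on 3. On each of the 3 slides that carried both groups all 18 members called in Ex3abERKO against control kept their sign, and the median of the 48 members was 1.16, 0.45 and 1.11 on slides 1, 2 and 4. The signs are no further support, since the members were called on these same arrays. Where no Ex3abERKO array overlapped with control, the sign could not have turned. With slide as a block, 16 of the 18 calls stayed past the threshold, all but Cxcl14 and Cxcl16. Across 27 alternative settings, 16 of which left out a single array, Ccl3, Ccl5, Ccl6, Pf4, Cxcl1, Cxcr3, Cxcr4 and Ccr6 stayed called under every setting. For Pf4 the within-slide differences lay between 1.98 and 2.88, and for Cxcl1 between 2.23 and 2.49.

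In ovaries lacking ERα alone, the 5 calls against control were rises of Cxcl2, Ccl24, Pf4 and Cxcl1 and the fall of Ccl28. They were 10.4% of the tested members, against 8.02% of all features. The comparison shares its control arrays with that of Ex3abERKO, in which the differences were 1.61 for Ccl24, 2.57 for Pf4, 2.41 for Cxcl1 and -1.42 for Ccl28. In Ex3aERKO they were 1.65, 1.49, 1.40 and -0.96. For Cxcl2 only the bounds given above hold, and its sign turned with the normexp correction. The median difference was 0.36 over the members and -0.08 over all features. With slide as a block 7 members were called, these 5 together with Cx3cl1 (adjusted p = 0.0381) and the brighter Cxcl12 probe, and with array weights the count was 19. The count rested on single arrays: it was 10 without Ex3aERKO 4, when Ccl12, Ccl6, Ccl7, Ccl3 and Cxcr4 passed as well, 2 without Ex3aERKO 2, 2 without Ex3aERKO 3, 3 without control 3, and 0 without Ex3aERKO 2, Ex3abERKO 2 and control 4 together. Within the 4 slides the members' median difference was 0.78, 0.37, 0.34 and 0.11, and Cxcl2, Ccl24, Pf4 and Cxcl1 kept their sign on each slide while Ccl28 did so on 3 of 4. These 5 were likewise called on the same arrays, so their signs are no further support.

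In ovaries labelled as lacking ERβ alone, where the Esr2 probe was not lower than in control, limma called no member against control (1.05% of all features called). The members' median difference was 0.11 against 0.01 for all features. Cxcl2, well above background on no control array, did not pass (adjusted p = 0.146 for the fitted difference), and its bound against control was 1.11-fold. Cxcl10 differed by -1.44 ± 0.52 (adjusted p = 0.304), which did not pass. Within slides 1, 3 and 4 the members' median difference was 0.33, -0.0067 and 0.16.

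Set against ERβ loss alone, loss of both receptors raised 15 members and lowered Cxcl14 (16.7% of all features called, 8.26% upward and 8.42% downward). Among the rises were Cxcl5, Cxcl9, Ccl6, Pf4, Cxcr4, Cx3cl1, Ccl7, Ccl5, Cxcl1, Ccl2, Cxcr3, Ccr6, Ccr2 and Cxcr1. They ran from 3.31 ± 0.72 (adjusted p = 0.0067) for Cxcl5 down to 1.40 ± 0.45 (adjusted p = 0.0455) for Ccr2, and Cxcr1, well above background on no Ex3bERKO array, was at least 1.87-fold higher (adjusted p = 0.0453). Pf4 differed by 1.91 ± 0.34 (adjusted p = 0.00208), Cxcr4 by 1.86 ± 0.35 (adjusted p = 0.00306), Cxcr3 by 1.46 ± 0.28 (adjusted p = 0.00311) and Cxcl14 by -1.33 ± 0.29 (adjusted p = 0.0074). The members' median difference was 0.99, against -0.10 for all features. With slide as a block 8 of the 16 calls stayed past the threshold, namely Pf4, Cx3cl1, Cxcl1, Ccl2, Cxcr3, Cxcr4, Cxcl5 and Cxcl14. All 16 kept their sign on both slides that carried both groups, which is no further support, as they were called on these same arrays. The count was 8 without Ex3bERKO 4 and 9 without Ex3bERKO 3.

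Set against ERα loss alone, loss of both receptors raised 3 members, Cxcl5 by 3.95 ± 0.72 (adjusted p = 0.00503), Ccl2 by 1.53 ± 0.44 (adjusted p = 0.0485) and Ccr6 by 1.45 ± 0.41 (adjusted p = 0.0411), and lowered none (7.78% of all features called, 4.43% upward and 3.35% downward). The 3 calls were 6.25% of the tested members, below the share of all features, so the count is not particular to the members. Cxcl5 stayed called under all 26 alternatives that gave it a value, while Ccl2 was lost under 21 of 27 and Ccr6 under 15 of 27. Cxcr3 differed by 0.93 ± 0.28 (adjusted p = 0.0527) and Pf4 by 1.08 ± 0.34 (adjusted p = 0.0655), neither of which passed. Cxcl2 and Ccl24, both higher than control in Ex3aERKO, differed between the double and the ERα knockout by 0.04 ± 0.42 (adjusted p = 0.979) and -0.05 ± 0.38 (adjusted p = 0.969). The members' median difference was 0.49, against -0.01 for all features. The count was 1 without Ex3aERKO 4, Ex3bERKO 2, Ex3bERKO 3, Ex3abERKO 2 or Ex3abERKO 4 and 5 without Ex3abERKO 3.

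**Figure D4:**
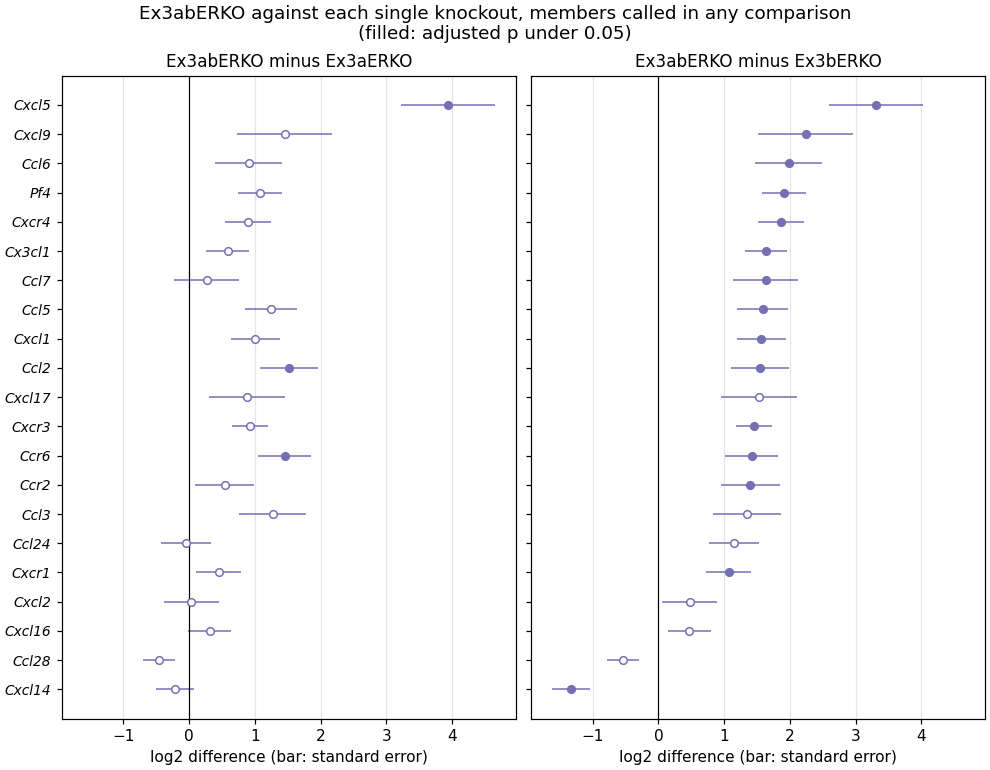
Log2 difference of Ex3abERKO from Ex3aERKO (left) and from Ex3bERKO (right) for 21 members called in any comparison, with bars of 1 standard error and filled points for an adjusted p under 0.05. Cxcl5 stands farthest right in both panels, at 3.95 and 3.31, and there are 3 filled points on the left and 15 on the right.

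The interaction contrast, which asks whether ERβ loss changed a gene differently where ERα was also missing, called no member by limma (3.6% of all features called, 1.83% with a positive and 1.77% with a negative estimate). The estimate was 3.27 ± 1.27 (adjusted p = 0.201) for Ccl11, the highest of the tested members, 2.99 ± 1.01 (adjusted p = 0.134) for Cxcl5 and 2.83 ± 1.02 (adjusted p = 0.164) for Cxcl9. For Pf4 it was 0.42 ± 0.48 (adjusted p = 0.759), for Ccl3 -0.02 ± 0.72 (adjusted p = 0.997) and for Cxcr4 0.97 ± 0.50 (adjusted p = 0.363). Without Ex3bERKO 2, whose Cxcl5 level was the highest of its group, 2 members were called, Cxcl5 (adjusted p = 0.0221) and Ccl11 (adjusted p = 0.0420), and without Ex3abERKO 3 there was 1, Ccl27a (adjusted p = 0.00929).

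The remaining 26 tested members were called in no comparison. Among the 16 of them that were neither called nor listed as partners of a called member, differences from control ran from -0.49 to 2.30 in Ex3abERKO, from -2.29 to 2.75 in Ex3aERKO and from -1.48 to 1.12 in Ex3bERKO. The upper end in Ex3bERKO was Ccl21c, and in Ex3abERKO and Ex3aERKO it was Ccl8, a monocyte attractant, singled out after its values were seen, whose 4 control arrays spread from -1.09 to 3.91. The lower ends were Ccl11, another eotaxin and likewise singled out by its values, whose control arrays lay between -3.78 and -3.41 while Ex3bERKO spread from -7.52 to -2.32. Ccl21c and Ccl27a belong to families of near-identical copies, so their probes may read more than 1 gene. The other ligands among the 16 were Ccl1, Ccl9, Ccl17, Ccl25, Cxcl15, Ppbp and Xcl1, and the receptors were Ccr1l1, Ccr4, Ccr8, Ccr9 and Xcr1.

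Beyond the members, 3 lists of the pathway were followed. Beside their counts stand the shares of all features called in Ex3abERKO against control, 10.7% upward and 11.7% downward. Of 12 atypical receptors and related chemoattractants, of which Pf4 and Ppbp are themselves members, 4 rose and 1 fell in Ex3abERKO against control. The scavenging receptors Ackr2 and Ackr3 rose by 0.95 ± 0.22 (adjusted p = 0.00621) and 0.91 ± 0.24 (adjusted p = 0.0144), and Dpp4, a peptidase that trims chemokines, by 1.87 ± 0.39 (adjusted p = 0.00323). Cklf, which encodes a chemokine-like factor, fell by 0.75 ± 0.21 (adjusted p = 0.0189). Of 18 genes of receptor signalling, 8 rose and none fell, among them Arrb2, a β-arrestin that ends receptor signalling, by 1.14 ± 0.15 (adjusted p = 0.00019), the phosphoinositide kinase subunits Pik3r5 by 2.27 ± 0.39 (adjusted p = 0.00106) and Pik3cg by 1.35 ± 0.37 (adjusted p = 0.0162), and Dock2, which drives leukocyte movement, by 1.75 ± 0.44 (adjusted p = 0.0103).

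Of 23 inducers of chemokines, cytokines and their signalling genes, 10 rose and 1 fell in Ex3abERKO. Il1a, a cytokine that induces Cxcl1 and its relatives, rose by 2.49 ± 0.38 (adjusted p = 0.000443), the lymphotoxin Lta by 2.35 ± 0.38 (adjusted p = 0.000686) and Il4 by 2.16 ± 0.23 (adjusted p = 5.53e-05). Nfkbia and Tnfaip3, feedback inhibitors that NF-κB induces, rose by 0.95 ± 0.20 (adjusted p = 0.00318) and 1.59 ± 0.27 (adjusted p = 0.000981). Tnf differed by 0.74 ± 0.31 (adjusted p = 0.109), Il1b by 0.49 ± 0.69 (adjusted p = 0.685) and Ifng by 0.71 ± 0.55 (adjusted p = 0.41). Irf7, an interferon-induced transcription factor, fell by 1.22 ± 0.40 (adjusted p = 0.0406). The lists' median differences were 0.47 for atypical receptors, 0.47 for signalling and 0.71 for inducers.

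Markers of leukocytes were higher in the Ex3abERKO arrays too, where 10.7% of all features were called upward against control. Of 17 macrophage markers 15 rose, with summed signal between 495 and 569 in Ex3abERKO, between 316 and 432 in Ex3aERKO, between 227 and 383 in Ex3bERKO, and between 188 and 259 in control. Of 15 T and NK cell markers 10 rose, with sums of 11.7 to 26.1 in Ex3abERKO and 6.53 to 9.92 in Ex3aERKO, beside 5.21 to 8.17 in Ex3bERKO and 5.99 to 10.3 in control. Of 10 B and plasma cell markers 7 rose, with sums of 26.3 to 164 in Ex3abERKO and 7.06 to 17.9 in Ex3aERKO, beside 3.84 to 14.2 in Ex3bERKO and 3.53 to 6.28 in control. For mast cells and eosinophils 8 of 10 rose, with sums of 20.2 to 28.7 in Ex3abERKO and 3.75 to 8.31 in Ex3aERKO, beside 3.05 to 5.10 in Ex3bERKO and 1.97 to 2.82 in control. Of 10 dendritic cell markers, which include the member Xcr1, 3 rose, and the sums of 29.6 to 73.3 in Ex3abERKO overlapped with the 15.9 to 58.5 of control. The macrophage marker Clec4f, of liver macrophages, was the only leukocyte marker on the array that was not well above background on 4 arrays.

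**Figure D5:**
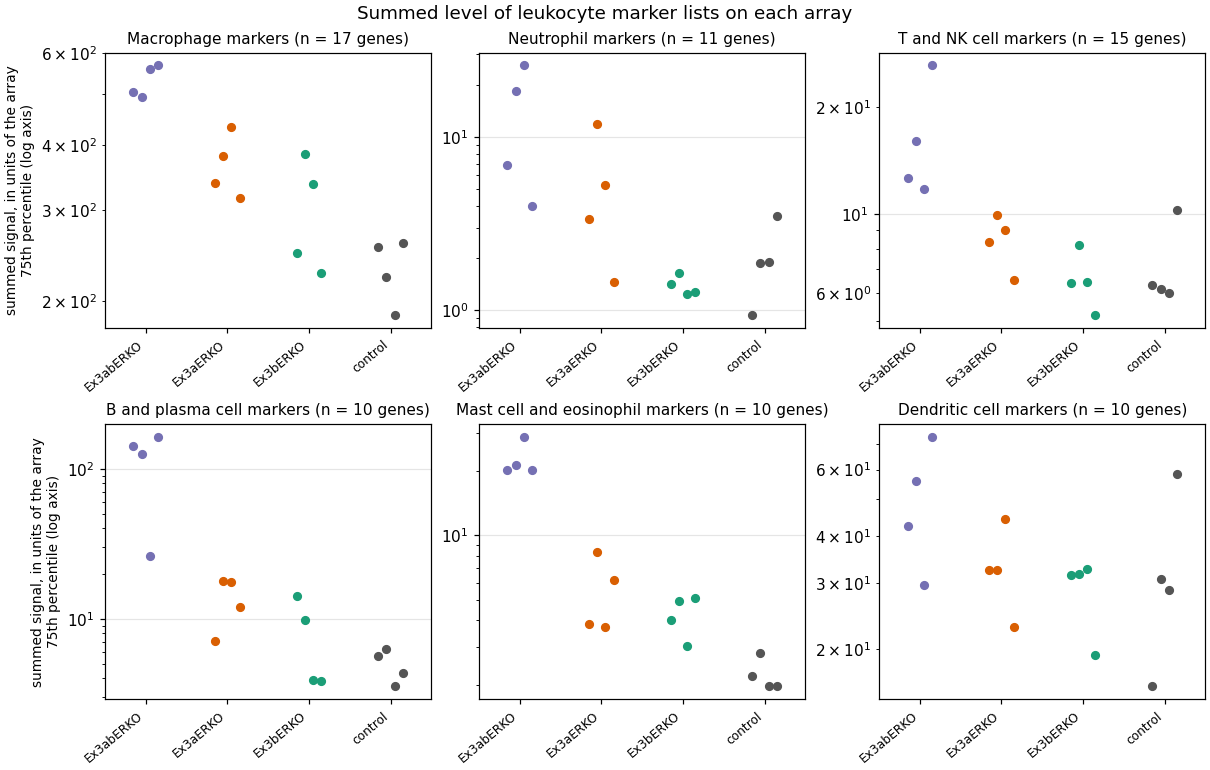
Summed signal of 6 leukocyte marker lists on each array (y axis, log scale, in units of the array's 75th percentile), 4 points a group. For macrophages, T and NK cells, B and plasma cells, and mast cells and eosinophils every Ex3abERKO array stands above every other array, while the dendritic cell sums overlap.

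Markers of ovarian and other tissue cells moved as well, beside 10.7% of all features called upward and 11.7% downward in Ex3abERKO against control. In Ex3abERKO against control, granulosa cell markers fell in 5 of 10 and rose in none, theca and Leydig cell markers fell in 5 of 8 and rose in 1, oocyte markers fell in 5 of 8 and rose in none, and endothelial markers fell in 4 of 12 and rose in 2. Stromal markers rose in 5 of 10 and fell in 1, and oviduct and epithelial markers rose in 5 of 9. Oviduct sums were highest in Ex3abERKO 2, at 102, and liver and blood sums highest in Ex3aERKO 2, at 181, and control 4, at 132, with no liver and blood marker called. The part of any of these in the chemokine results was not tested.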

How the data were processed

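RNA from 16 whole-ovary samples, 4 in each of 4 genotypes, was hybridised to single-colour (Cy3) Agilent arrays. The spot intensities were made by the authors with Agilent Feature Extraction 9.5, per the submitters' processing notes, and the deposited table of 41174 probes equals the mean processed signal. Log2 values were computed here from the deposited processed intensities, divided by each array's 75th percentile over 43379 non-control spots and floored at -8.88. Outlier spots were left out, and 36227 probes well above background on at least 4 arrays were kept. The brightest kept probe stood for each gene. The model was limma 3.58.1 (R 4.3.3) with 4 group means, moderated tests, Benjamini-Hochberg adjustment over 24442 features and a threshold of 0.05; it was tested on simulated data. Array number limits precision. Members, lists and roles were chosen with earlier results of these data known. Values on all arrays are given for members called in any of the 6 comparisons and for their listed ligand or receptor partners, and the others by range and count. One member is not reported here, though counts over all members include it. Genes that are no member are named only from the lists.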

Additional observations from a re-analysis of the deposited data

Results flagged for a closer look

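Single arrays that stood apart from the other 3 of their group were looked for in the 48 tested members, over 192 groups of 4, and 14 were found, where chance flags about 1 in 20 groups. In Ex3abERKO, replicate 3 was high for Ccl12 (0.85), Ccl17 (-0.95) and Cxcl15 (-5.60), and replicate 4 was high for Cxcl9 (0.36). In Ex3aERKO, replicate 4 was low for Ccl12 (-1.15) and Ccl7 (-2.68). In Ex3bERKO, replicate 4 was low for Ccl1 (-6.68) and replicate 2 was low for Ccr1l1 (-6.56) and Ccr9 (-4.86). In control, replicate 2 was low for Ccl1 (-6.89) and high for Ccl3 (-0.096), replicate 3 was low for Ccr3 (-4.33), and replicate 4 was high for Cxcl10 (1.99) and low for Cxcl15 (-8.14). All values are log2 levels.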

How the results depend on the processing

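Of 1126 recomputed values of the 42 member calls, 940 kept direction and call, 182 lost the call and 4 reversed. With normexp background correction Cxcl2 reversed to -0.54 in Ex3aERKO and -0.41 in Ex3abERKO against control and Cxcr1 to -0.47 in Ex3abERKO against control. On second probes, a setting chosen after seeing the data, Cx3cl1 was -0.45 in Ex3abERKO against Ex3bERKO. In Ex3abERKO against control the count of 18 became 11 with normexp, 25 with array weights, 14 without Ex3aERKO 2, Ex3abERKO 2 and control 4, and 15 to 21 leaving out an array. In Ex3aERKO against control the count of 5 became 1 with normexp, 19 with array weights, 3 with only the groups compared, 0 without Ex3aERKO 2, Ex3abERKO 2 and control 4, and 2 to 10 leaving out an array. In Ex3bERKO against control the count of 0 became 2 with array weights and 0 to 1 leaving out an array, the 1 being Cxcl2 without Ex3aERKO 4. In Ex3abERKO against Ex3aERKO the count of 3 became 1 with normexp, 8 with weights, 1 with only the groups compared, 1 without those 3 arrays, and 1 to 5 leaving out an array. In Ex3abERKO against Ex3bERKO the count of 16 became 9 with normexp, 8 with slide as a block, 18 with weights, 10 without those 3 arrays, and 8 to 17 leaving out an array. The interaction count of 0 became 2 with weights and 0 to 2 leaving out an array. The cause of these changes was not tested. Replicate numbers did not pair the samples: deviations of same-numbered samples correlated between -0.29 and 0.43 over 24 pairs, with a median of -0.07. Arrays on the same slide did share deviations, with a median correlation of 0.28 over 22 pairs. It was -0.06 over the 54 pairs that shared neither slide nor number. The main fit held no slide term. With the replicate block the counts were 18, 5, 0, 3, 13 and 0 in the order given here. Dim probes such as Cxcl2, Cxcr1 and Cxcl17 are limited by background.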
